A study of Mus musculus with 14 samples.

Results

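Transcripts of 5 mouse genes of the egg coat and egg surface were followed through oocytes that carried defects in the small RNA pathway. The genes are *Zp1*, *Zp2* and *Zp3*, which encode the structural proteins of the zona pellucida, *Astl*, which encodes the cortical granule protease ovastacin, and *Cd9*, which encodes a tetraspanin of the egg membrane. They were taken from a list of names, chosen with earlier results of these data known. They are 5 of the 20337 genes to which the deposited RefSeq transcripts could be matched. Each is represented by a single RefSeq transcript in the count files, so no choice between isoforms was needed, and all 5 passed the filter on low counts in every comparison.

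RNA-seq had been done on full-grown, germinal vesicle-intact mouse oocytes, the stage arrested in the first meiotic prophase, with 20 oocytes from several females pooled in each of 14 libraries. The females were 4 to 6 weeks old and received 5 IU of equine chorionic gonadotropin, and the oocytes were taken 48 h later. The question was whether loss of AGO2-dependent RNA cleavage changes the oocyte transcriptome as loss of *Dicer* does. Here it is asked of the egg coat genes alone.

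The controls of the *Ago2* series were 3 *Ago2* fl/fl libraries, which carry 2 floxed *Ago2* alleles and no Cre. The 3 *Ago2* ADH libraries came from *Ago2* fl/ADH females with Cre, whose only remaining allele encodes an AGO2 protein that binds small RNAs and cannot cleave their targets. The 2 *Ago2* null libraries came from *Ago2* fl/fl females with Cre. The *Dicer* series held 3 *Dicer* WT and 3 *Dicer* KO libraries, the latter from an oocyte-specific deletion. In the *Ago2* crosses, Cre recombinase is driven by the promoter of *Zp3*, itself one of the genes described here. The deletion therefore begins in growing oocytes, after some AGO2 has been made, and the ADH and null females carry a *Zp3* promoter transgene that the fl/fl females lack. Whether that transgene holds any transcribed *Zp3* sequence is not given in the sources used here.

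The zona pellucida is an extracellular coat that the growing oocyte secretes around itself. Sperm bind to its ZP2 protein, and after fertilization ovastacin, released from the cortical granules, cleaves ZP2 so that further sperm no longer bind. CD9 acts later, at the egg membrane, where it is needed for sperm and egg to fuse. The zona genes are transcribed during oocyte growth by the heterodimer of FIGLA and the E protein TCF3, basic helix-loop-helix factors that bind E-boxes.

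*Zp1* (NM_009580) lies on the minus strand at chr19:10914296-10920601 of GRCm38, *Zp2* (NM_011775) on the minus strand at chr7:120126762-120145291, and *Zp3* (NM_011776) on the plus strand at chr5:135980105-135988624. *Astl* (NM_172539) spans chr2:127338639-127357655 on the plus strand and *Cd9* (NM_007657) chr6:125460266-125494760 on the minus strand. *Cd9* alone overlaps other annotated genes, the antisense gene *Gm28809* and the processed transcript *Gm26728*. The counting ignored strand, so any reads of these partners that lie within *Cd9* exons cannot be told from those of *Cd9*. The overlap was taken over whole gene spans, and exons were not compared.

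Because FIGLA and TCF3 bind E-boxes, the 250 bases before the start site are shown for *Zp3*, *Astl* (2 listed starts) and *Cd9*, from the RefSeq promoter table of GRCm38.p6, which held entries for 3 of the 5 genes. Capitals mark every CANNTG, the E-box core, which reads the same on both strands, and the last base printed is the one before the start site.

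Zp3 (plus strand, chr5:135979855-135980104): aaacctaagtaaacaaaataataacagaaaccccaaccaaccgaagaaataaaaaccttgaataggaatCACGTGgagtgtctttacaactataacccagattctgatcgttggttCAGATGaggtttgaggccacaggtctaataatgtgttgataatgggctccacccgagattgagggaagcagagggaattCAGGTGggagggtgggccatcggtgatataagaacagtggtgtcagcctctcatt

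Astl, first start (plus strand, chr2:127338389-127338638): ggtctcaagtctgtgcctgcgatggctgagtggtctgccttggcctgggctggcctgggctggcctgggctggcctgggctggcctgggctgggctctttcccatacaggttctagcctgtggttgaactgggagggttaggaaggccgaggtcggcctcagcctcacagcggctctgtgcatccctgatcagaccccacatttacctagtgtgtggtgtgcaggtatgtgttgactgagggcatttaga

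Astl, downstream start (plus strand, chr2:127341386-127341635): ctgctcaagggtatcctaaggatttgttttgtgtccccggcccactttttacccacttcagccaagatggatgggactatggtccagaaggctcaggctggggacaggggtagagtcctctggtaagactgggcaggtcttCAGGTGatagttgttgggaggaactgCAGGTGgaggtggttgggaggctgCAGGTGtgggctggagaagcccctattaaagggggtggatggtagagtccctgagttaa

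Cd9 (minus strand, chr6:125494761-125495010): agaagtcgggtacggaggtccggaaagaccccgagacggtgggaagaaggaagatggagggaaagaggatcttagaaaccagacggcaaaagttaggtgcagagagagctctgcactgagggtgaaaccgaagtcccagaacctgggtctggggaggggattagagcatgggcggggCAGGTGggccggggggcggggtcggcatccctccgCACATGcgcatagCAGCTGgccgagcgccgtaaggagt

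In the *Zp3* window the core begins 181 (CACGTG), 134 (CAGATG) and 55 (CAGGTG) bases before the start. The window before the first *Astl* start, where the gene model of the counted transcript begins, holds 0 matches to CANNTG. The window before the second start, which lies downstream within that gene model, holds CAGGTG 3 times, beginning 109, 83 and 59 bases before it. In *Cd9* it begins 73 (CAGGTG), 38 (CACATG) and 25 (CAGCTG) bases before the start. Matches to so short a core are common. Of 32851 promoter windows of this length, 66.2% held at least 1 CANNTG, 17.2% held CAGGTG on either strand, 12.2% held 3 or more CANNTG, and 0.247% held 3 or more CAGGTG on either strand.

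Sums of counts over transcripts ranged from 29380403 to 58285057 per library, and the 5 genes had between 1118 and 146826 counts in each library, far above the floor of 3 counts. Levels below are CPM, counts divided by library size, scaled by TMM over all 14 libraries, whereas each test was scaled within the libraries it compared, so the fitted changes differ slightly from ratios of the printed means. *Ago2* counts were 1258 to 1509 in the fl/fl, 535 to 753 in the ADH and 278 to 401 in the null libraries. *Dicer1* counts cover the whole transcript and do not check the deletion, and they rose in the libraries labelled *Dicer* KO (log2 fold change 1.26) and in ADH and null oocytes (0.67 and 0.59). The *Dicer* groups are taken from the labels. Alignments of reads with several alignments were higher in the KO libraries, 93.9 to 119 for each 100 counts on transcripts against 38.8 to 53.6 in the WT libraries. The 8 oocyte markers summed to between 10474 and 17917 CPM in every library. *Hbb-bt* had 0 counts in every library, and *Hba-a1* and *Ptprc* stayed under 1 CPM in each. Of the 12 granulosa and cumulus markers, 5, *Amh* and *Foxl2* included, stayed under 1 CPM in every library. *Cyp19a1* (20.5 to 57.7 CPM) and *Nr5a2* (26.6 to 40.9 CPM) were higher, and the 12 summed to between 57.2 and 104 CPM. The file names give 1 sequencing lane to each *Ago2* genotype, and the effects of lane and genotype cannot be separated in that series. In pooled oocytes, fewer cells with a transcript and less of it per cell cannot be told apart.

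Per kilobase of transcript, the order of the 5 genes was the same in all 5 groups. *Zp3* came first, followed by *Zp2*, *Zp1*, *Astl* and *Cd9*, and no library of one gene overlapped those of the next within a group. In *Ago2* fl/fl oocytes the levels were 1429 ± 12.3 CPM per kilobase for *Zp3*, 912 ± 18.9 for *Zp2*, 254 ± 2.33 for *Zp1*, 82.4 ± 4.9 for *Astl* and 33.5 ± 2.4 for *Cd9* (SD, n = 3). *Zp3* ranked 10 and *Zp2* 25 among 20241 genes of known length by this measure, *Zp1* ranked 187, *Astl* 722 and *Cd9* 1872. In *Dicer* WT oocytes the ranks were 8, 26, 202, 1214 and 1295 in the same order. The narrowest step in the order was between *Astl* and *Cd9* in *Dicer* WT oocytes, at 47.8 ± 0.585 and 45.2 ± 2.24 CPM per kilobase (SD, n = 3).

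**Figure D1:**
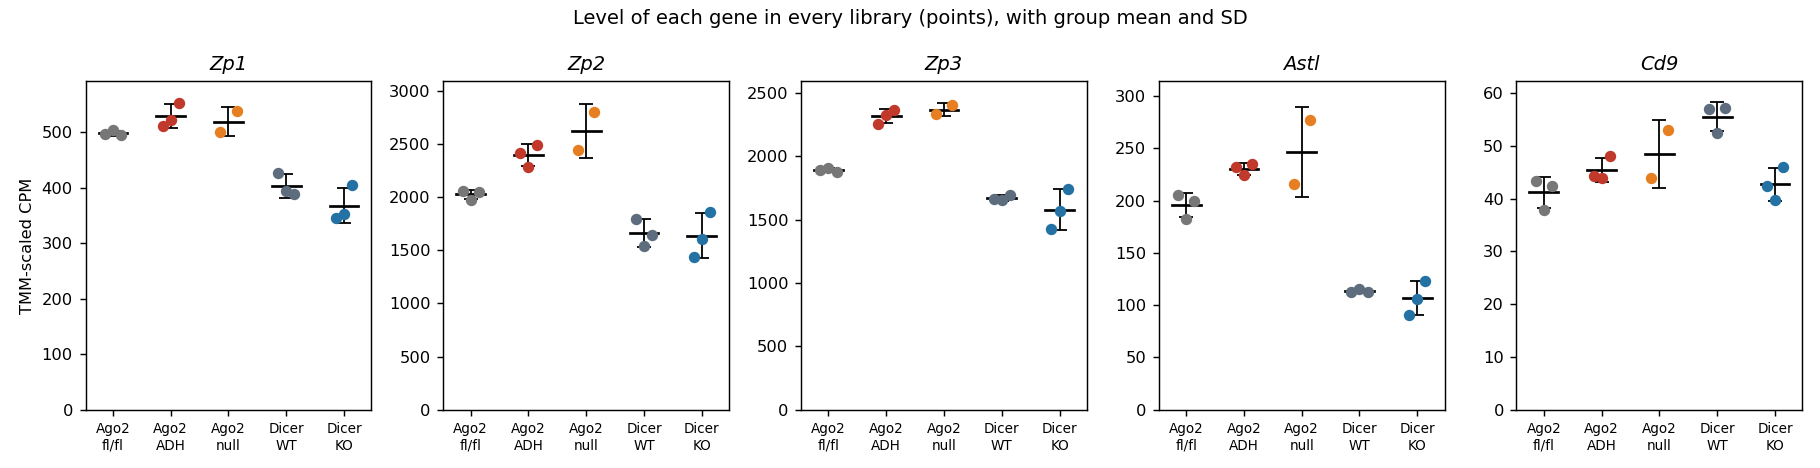
TMM-scaled CPM of each gene (vertical axis, from 0, with its own scale in each panel) in the 14 libraries, by group on the horizontal axis; points are libraries, the bar is the group mean and the whiskers 1 SD. *Zp2*, *Zp3*, *Astl* and, by a small margin, *Cd9* sit higher in every *Ago2* ADH and null library than in any fl/fl library. *Cd9* is lower in the 3 *Dicer* KO than in the 3 *Dicer* WT libraries.

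In *Ago2* ADH oocytes, transcripts of the sperm-binding and structural proteins ZP2 and ZP3 and of the protease ovastacin were more abundant than in fl/fl oocytes, while *Zp1* and *Cd9* moved less and were not called. *Zp2* rose 1.22-fold, *Zp3* 1.27-fold and *Astl* 1.22-fold. *Ago2* null oocytes had the same 3 genes higher, 1.32-fold, 1.28-fold and 1.28-fold. Calls are at a false discovery rate (FDR) of 1%, and adjusted p-values come from the quasi-likelihood test of edgeR, corrected by the Benjamini-Hochberg method over all transcripts tested. In this comparison 3 of 5 genes were called in ADH oocytes, all higher, where 40.7% of the 18835 transcripts tested were called, 20.5% higher and 20.1% lower. In null oocytes 3 of 5 were called, all higher, against 37.2% of 19236 transcripts called, 18.1% higher and 19.1% lower. The median log2 fold change of the 5 genes was 0.28 in ADH and 0.36 in null oocytes, beside 0.007 and 0.002 over all transcripts. Over all transcripts, the median size of the change, without regard to sign, was 0.34 in ADH and 0.37 in null oocytes. Both comparisons use the same 3 fl/fl libraries, so they are not independent of each other.

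*Zp3*, the zona gene with the highest level per kilobase, had 1889, 1909 and 1876 CPM in the fl/fl libraries, 2255, 2329 and 2365 in the ADH libraries, and 2333 and 2406 in the null libraries. Its spread was small and the control libraries lay well below all others. The log2 fold change was 0.34 in ADH (standard error (SE) 0.0401, edgeR adjusted p = 9.69e-07) and 0.36 in null oocytes (SE 0.0473, edgeR adjusted p = 1.03e-05).

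*Zp2*, whose product is the sperm ligand and the substrate of ovastacin, had 2053, 1976 and 2045 CPM in the fl/fl, 2416, 2279 and 2487 in the ADH, and 2440 and 2798 in the null libraries. The genotypes again did not overlap with fl/fl, and null replicate 2 was the highest of all 14 libraries. *Zp2* changed by 0.29 in ADH (log2, SE 0.0447, edgeR adjusted p = 2.48e-05) and by 0.40 in null oocytes (SE 0.0562, edgeR adjusted p = 1.77e-05).

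*Zp1*, whose product cross-links the zona filaments, differed least. It had 496, 503 and 495 CPM in the fl/fl, 512, 522 and 553 in the ADH, and 500 and 537 in the null libraries. The ADH libraries lay above the fl/fl libraries by little, and null replicate 1 lay among them. On the scale of the 5 fl/fl and null libraries alone, the groups stood just apart, at 497 to 509 CPM in fl/fl and 516 to 552 in null oocytes. The log2 fold change of *Zp1* was 0.13 in ADH (95% interval 0.04 to 0.23, edgeR adjusted p = 0.0202) and 0.09 in null oocytes (-0.03 to 0.20, edgeR adjusted p = 0.183).

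*Astl* had 205, 183 and 199 CPM in the fl/fl libraries, 232, 224 and 235 in the ADH, and 216 and 277 in the null libraries. The null libraries lay far apart, with replicate 2 well above every ADH library and replicate 1 below all of them. *Astl* changed by 0.28 in ADH (log2, SE 0.052, edgeR adjusted p = 0.000165) and by 0.36 in null oocytes (SE 0.0824, edgeR adjusted p = 0.00163). Its call in null oocytes was lost without null replicate 2 (0.17, edgeR adjusted p = 0.0625) and without fl/fl replicate 2 (0.32, edgeR adjusted p = 0.0129), and its call in ADH oocytes with all 14 libraries in 1 fit (0.23, edgeR adjusted p = 0.0241).

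*Cd9*, the membrane tetraspanin of the fusion step, had 43.3, 37.8 and 42.4 CPM in the fl/fl libraries, 44.3, 43.9 and 48.1 in the ADH, and 43.9 and 53 in the null libraries. All ADH and null libraries were above all fl/fl libraries, by a margin of under 1 CPM at the closest. Its log2 fold change was 0.19 in ADH (95% interval 0.04 to 0.34, edgeR adjusted p = 0.0344) and 0.27 in null oocytes (0.08 to 0.45, edgeR adjusted p = 0.0202). In null oocytes *Cd9* was called without null replicate 1 (0.40, edgeR adjusted p = 0.00193) and without the low count filter (0.26, edgeR adjusted p = 0.00852).

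**Figure D2:**
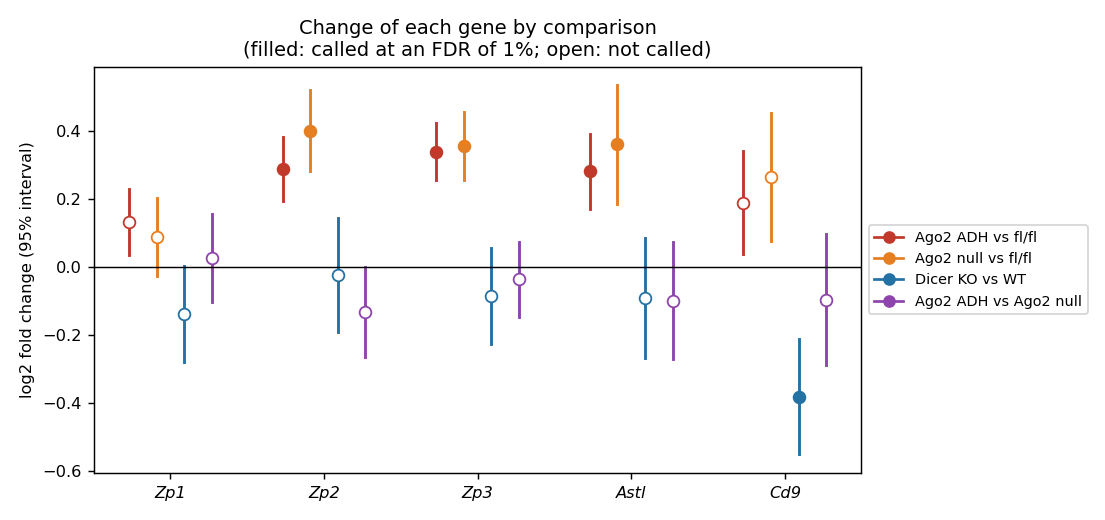
Log2 fold change of each gene (vertical axis) in 4 comparisons (colours), with 95% intervals as lines; filled points were called at an FDR of 1% and open points were not. *Zp2*, *Zp3* and *Astl* are filled and above 0 in both *Ago2* comparisons, *Cd9* alone is filled in the *Dicer* comparison, at -0.38, and no point is filled between ADH and null oocytes.

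The increases are relative to the other transcripts, and they depend on what the libraries are scaled to. For each 100 counts on transcripts, the files tally 55.7 to 59.7 alignments of reads with several alignments in the fl/fl libraries, 158 to 166 in the ADH and 157 to 166 in the null libraries. This tally counts a read once for each of up to 100 alignments. When counts were scaled to transcripts, reads outside them and this tally together, an alternative added after the data were seen, the median of all transcripts shifted to -0.75 in ADH and -0.74 in null oocytes. All 5 genes were then lower than in fl/fl oocytes, by -0.42 to -0.63 in ADH and -0.34 to -0.66 in null oocytes. Relative to that shifted median the changes of the called genes were 0.27 to 0.33 in ADH and 0.35 to 0.40 in null oocytes. Whether the amount of egg coat mRNA per oocyte rose cannot be read from these files.

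The 3 zona genes together took 0.444%, 0.446% and 0.453% of counts on transcripts in the fl/fl, 0.533%, 0.513% and 0.551% in the ADH, and 0.54% and 0.582% in the null libraries. This share turns with the scale. Of transcript counts, reads outside transcripts and the alignment tally together, it was 0.264% in fl/fl, 0.191% in ADH and 0.201% in null oocytes. That total mixes reads with alignments. Ratios of one gene to another within a library do not depend on the scaling. The per-base ratio of *Zp2* to *Zp3* was 0.638 ± 0.0181 in fl/fl, 0.616 ± 0.0292 in ADH (SD, n = 3 each) and 0.658 ± 0.0493 in null oocytes (n = 2), and the groups overlapped. For *Zp1* the ratio to *Zp3* was 0.177, 0.178 and 0.178 in the fl/fl libraries, 0.153, 0.151 and 0.158 in the ADH libraries, and 0.144 and 0.151 in the null libraries. The mean ratio differed from fl/fl by -13.3% in ADH oocytes (exact permutation test, 2-sided, p = 0.1, adjusted p = 0.5 over 15 ratio tests) and by -16.9% in null oocytes (exact permutation p = 0.2, adjusted p = 0.5). These are the smallest p-values that 3 against 3 and 2 against 3 libraries can give. The groups did not overlap in either case, and this test cannot reach 0.05 with so few libraries.

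The ratio of *Astl* to *Zp2* was 0.0903 ± 0.00358 in fl/fl and 0.0899 ± 0.00187 in ADH oocytes (SD, n = 3 each, exact permutation p = 1). The ratio of *Cd9* to *Zp3* was 0.0235 ± 0.00185 in fl/fl and 0.0211 ± 0.000799 in ADH oocytes, with overlapping libraries (SD, n = 3 each, exact permutation p = 0.2).

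**Figure D3:**
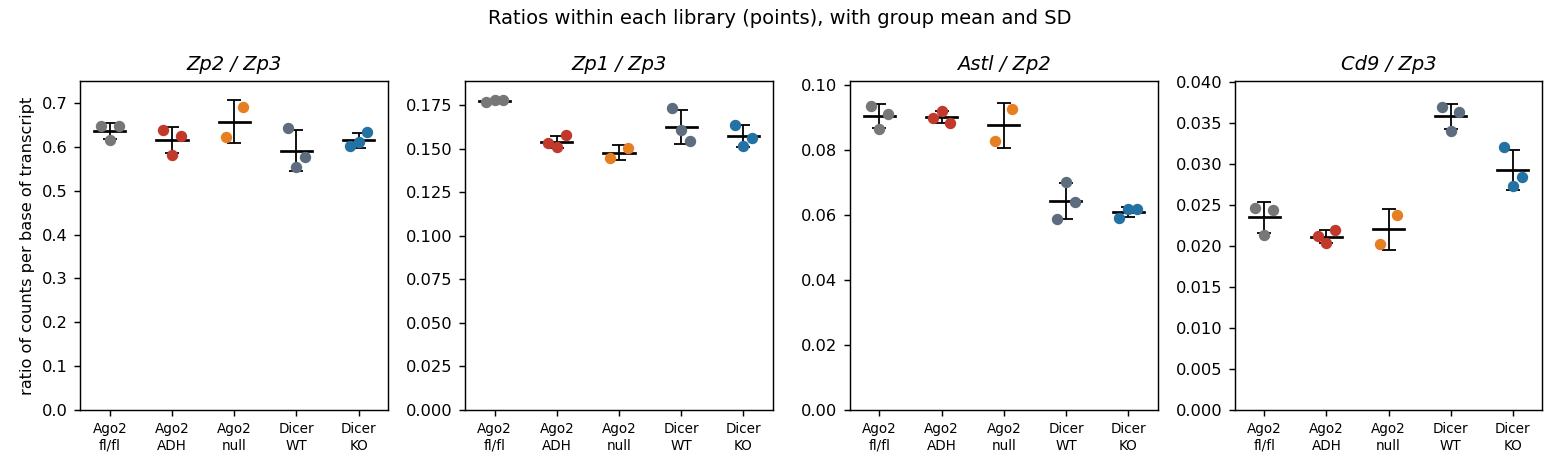
Ratios of counts per base of transcript between pairs of the genes (vertical axis, from 0, with its own scale in each panel) within each library, by group; points are libraries, the bar is the mean and the whiskers 1 SD. The *Zp1* to *Zp3* ratio lies between 0.177 and 0.178 in the fl/fl libraries and from 0.144 to 0.158 in the 5 ADH and null libraries, and the *Cd9* to *Zp3* ratio is lower in *Dicer* KO than in *Dicer* WT libraries.

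In the *Dicer* series the calls were not the same. The difference between the ADH and *Dicer* KO effects is tested below, and it was called for *Cd9* and *Zp3* only. None of *Zp1*, *Zp2*, *Zp3* and *Astl* was called, and *Cd9* fell, to 0.768 of its level in *Dicer* WT oocytes. *Cd9* was 1 of 5 genes called, where 34.5% of the 18570 transcripts tested were called and 17.8% were called lower. The median log2 fold change of the 5 genes was -0.09, beside -0.004 over all transcripts, whose median change without regard to sign was 0.36.

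*Cd9* had 57, 52.3 and 57.2 CPM in *Dicer* WT oocytes, against 42.3, 39.7 and 46 in the libraries labelled *Dicer* KO. Every KO library was below every WT library, and the change was -0.38 on the log2 scale (SE 0.0809, edgeR adjusted p = 0.000758). The call held without any 1 of the 6 libraries, with values from -0.44 to -0.33. The summed level of the 12 granulosa and cumulus markers was also lower. It was 96.2 to 104 CPM in *Dicer* WT and 81.1 to 84.3 in *Dicer* KO libraries, nearly all of it from *Cyp19a1*, *Nr5a2* and *Kitl*, while 5 of the 12, *Amh* and *Foxl2* included, stayed under 1 CPM in every library. Of the 6 markers tested, *Nr5a2* (-0.43) and *Has2* (-1.97) were called lower, and *Inhba* had 1.06 (edgeR adjusted p = 0.108). In the *Ago2* series this sum was lower in ADH (61.7 to 69.1) and null (57.2 to 60) than in fl/fl libraries (77.2 to 83.7). Of 7 markers tested in ADH oocytes, *Fshr* (-1.67) and *Cyp19a1* (-0.50) were called lower, and *Inha* had 0.97 (edgeR adjusted p = 0.0188). Of 9 tested in null oocytes, *Cyp19a1* (-0.59) was called lower. The part of these cells in the *Cd9* counts was not tested.

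*Zp2* had 1798, 1539 and 1645 CPM in the *Dicer* WT and 1439, 1610 and 1862 in the *Dicer* KO libraries. The KO libraries spanned the WT values on both sides, and the log2 fold change was -0.02 (95% interval -0.19 to 0.14, edgeR adjusted p = 0.828). *Zp3* had 1662, 1655 and 1696 CPM in WT and 1424, 1569 and 1745 in KO libraries, a log2 fold change of -0.08 (-0.23 to 0.06, edgeR adjusted p = 0.326).

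*Zp1* had 427, 394 and 388 CPM in WT and 346, 352 and 404 in KO libraries, a change of -0.14 on the log2 scale (95% interval -0.28 to 0.00, edgeR adjusted p = 0.107). *Astl* had 113, 115 and 113 CPM in WT and 91.1, 106 and 123 in KO libraries, with -0.09 (-0.27 to 0.09, edgeR adjusted p = 0.401). KO replicate 3 had the highest value of the 3 KO libraries for all 5 genes, and it also had the most alignments of reads with several alignments, 119 for each 100 counts on transcripts against 93.9 and 96.3 in the other KO libraries. The zona genes' share of counts was 0.3%, 0.338% and 0.393% in the KO libraries, a wider spread than the 0.364% to 0.391% of the WT libraries.

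The difference between the ADH effect and the *Dicer* KO effect was tested as an interaction, with controls that are not shared. It was positive for all 5 genes and called for *Cd9* and *Zp3*, 2 of 5, where 3.55% of 19500 transcripts were called and 1.2% were called in this direction. For *Cd9* the difference was 0.52 (log2, SE 0.109, 95% interval 0.29 to 0.74, edgeR adjusted p = 0.00367), from changes of 0.19 and -0.38. For *Zp3* it was 0.37 (SE 0.0796, 95% interval 0.21 to 0.54, edgeR adjusted p = 0.0043), from changes of 0.34 and -0.08. *Astl* (0.32, edgeR adjusted p = 0.0609), *Zp2* (0.26, edgeR adjusted p = 0.106) and *Zp1* (0.22, edgeR adjusted p = 0.109) did not pass. Both calls lie near the threshold. That of *Cd9* was lost without fl/fl replicate 2, ADH replicate 3, WT replicate 1, WT replicate 3 or KO replicate 2, with edgeR adjusted p-values up to 0.0187. The *Zp3* call was lost in 6 of the 12 fits that leave out a library, namely each of the 3 fl/fl libraries, ADH replicate 3, WT replicate 1 and KO replicate 2 (edgeR adjusted p up to 0.0142), and with the replicate number as a block (0.38, edgeR adjusted p = 0.0106). Without *Dicer* KO replicate 3, *Zp2* (0.36, edgeR adjusted p = 0.00534) and *Astl* (0.44, edgeR adjusted p = 0.00248) passed as well. With the total that includes the alignment tally as the scale, the median of all transcripts was -0.21. Neither *Cd9* (0.34, edgeR adjusted p = 0.0553) nor *Zp3* (0.20, edgeR adjusted p = 0.184) was then called.

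Between ADH and null oocytes, 0 of the 5 genes was called by edgeR, where 0.119% of 19306 transcripts were (0.0673% higher and 0.0518% lower), and 0 of the 5 by DESeq2. None of them reached an unadjusted p of 0.05, the lowest being that of *Zp2* at 0.0524. The log2 differences, ADH minus null, were -0.13 for *Zp2* (95% interval -0.26 to 0.00), -0.03 for *Zp3* (-0.15 to 0.08), 0.03 for *Zp1* (-0.10 to 0.16), -0.10 for *Astl* (-0.27 to 0.07) and -0.10 for *Cd9* (-0.29 to 0.10).

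Control oocytes of the 2 series did not start from the same levels. *Astl* was at 196 ± 11.6 CPM in *Ago2* fl/fl and 114 ± 1.39 in *Dicer* WT oocytes, while *Cd9* was at 41.2 ± 2.95 and 55.5 ± 2.76 (SD, n = 3 each). *Zp2* was at 2025 ± 41.9 and 1661 ± 130, *Zp3* at 1891 ± 16.3 and 1671 ± 21.6, and *Zp1* at 498 ± 4.57 and 403 ± 21.2 CPM. *Zp1*, *Zp2*, *Zp3* and *Astl* were lower in *Dicer* WT, and *Cd9* was higher. The libraries of the 2 control groups did not overlap for these genes. How many other transcripts separate the control groups likewise was not counted, so this is not a trait shown for these genes. The series differ in line, depth and lane, which cannot be told apart. The paper does not say whether read length differed between them as well. Across the 5 groups, *Zp2*, *Zp3* and *Astl* had the same order, null, ADH, fl/fl, WT, KO. Null and ADH overlapped in each of them, as did WT and KO, and the other neighbours were separate. *Cd9* was highest in *Dicer* WT, and no neighbouring groups in its order, WT, null, ADH, KO and fl/fl, were free of overlap.

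Over the 14 libraries, log2 CPM of *Zp1*, *Zp2*, *Zp3* and *Astl* rose and fell together, with Pearson's r from 0.91 to 0.97 between pairs. With each series' mean subtracted, r among these 4 was 0.66 to 0.90. For *Cd9*, r to the other 4 was -0.15 to -0.005 over all libraries and 0.60 to 0.76 with series means subtracted, where its r to *Zp1* (0.76) was above those of *Zp2*, *Zp3* and *Astl* to *Zp1* (0.66 to 0.69). These values describe 14 libraries that share groups, lanes and scaling and carry no test.

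Among 7261 genes with a mean of at least 10 CPM, the pattern most like that of *Zp1* was *Pigs* (r = 0.98), a subunit of the complex that attaches GPI anchors, followed by *Vma21* and *Evx1* (both 0.97). For *Zp2* they were *Adprh* (0.97), *Padi6* (0.96), a protein of the oocyte's cytoplasmic lattices, and *Nudt5* (0.96), and for *Zp3* they were *Adprh* (0.96), *Ndufs6* (0.96) and *Padi6* (0.96). *Astl* was closest to *Padi6* (0.99), *Evx1* (0.98) and *Fam216a* (0.98). For *Cd9* they were *Ptpn4* (0.86), *Tmem169* (0.83) and *Hacd3* (0.83). With series means subtracted, the highest r was 0.88 for *Cd9* (*Ptpn4*) and 0.87 for *Zp1* (*Pigs*).

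Of 6 regulators on the list, factors that drive the zona genes or act upstream in the oocyte programme, 4 rose in ADH and 4 in null oocytes and 0 fell, beside 20.5% and 18.1% of all transcripts called higher, and the median log2 fold changes were 0.33 and 0.30. In the *Dicer* comparison 2 of 5 tested rose and 0 fell, beside 16.7% called higher, with a median of 0.13. *Figla* had 27.1 to 36.2 CPM in fl/fl, 35.8 to 41.6 in ADH and 35.3 to 47.1 in null libraries, overlapping a little. It rose by 0.33 in ADH (edgeR adjusted p = 0.00682) and 0.43 in null oocytes (edgeR adjusted p = 0.00628) and had -0.01 in *Dicer* KO oocytes (edgeR adjusted p = 0.941). The interaction for *Figla* was 0.29 (edgeR adjusted p = 0.249), so its effects were not shown to differ. Its partner *Tcf3*, measured by 1 of its 8 transcripts, rose in all 3 comparisons, by 0.34, 0.31 and 0.36. The homeobox gene *Nobox* also rose in all 3, by 0.41, 0.29 and 0.33. *Lhx8*, another homeobox factor of early oocytes, rose by 0.20 and 0.21 in ADH and null oocytes and had 0.13 in *Dicer* KO oocytes (edgeR adjusted p = 0.117). Most of these calls lie near the threshold. That of *Figla* was lost in 4 of 6 fits without 1 library in ADH oocytes (0.24 to 0.44 over the 6) and in 3 of 5 in null oocytes, where it was 0.21 (edgeR adjusted p = 0.186) without null replicate 2 and 0.63 without null replicate 1. Those of *Tcf3* were lost in 2 of 6 such fits in ADH, 4 of 5 in null and 4 of 6 in *Dicer* KO oocytes, and those of *Lhx8* in 1 of 6 in ADH and 3 of 5 in null oocytes. *Nobox* kept its call in each such fit in ADH and *Dicer* KO oocytes and lost it in null oocytes without fl/fl replicate 1 (0.23) or null replicate 1 (0.17, edgeR adjusted p = 0.077). With the replicate number as a block, *Figla*, *Tcf3* and *Lhx8* were not called in null oocytes, nor *Tcf3* in *Dicer* KO oocytes. Scaling by library totals lost *Figla* in ADH, *Tcf3* and *Lhx8* in null and *Tcf3* in *Dicer* KO oocytes, upper quartile scaling lost *Figla* in ADH oocytes, and 1 fit of all 14 libraries lost *Figla* in ADH, *Tcf3* in null and *Lhx8* in both.

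Of 7 genes for adhesion and fusion at the egg membrane, where CD9 acts, 2 rose and 1 fell in ADH, 3 rose and 2 fell in null, and 0 rose and 1 fell in *Dicer* KO oocytes, beside 40.7%, 37.2% and 34.5% of all transcripts called, with medians of 0.13, 0.26 and 0.11. *Itgb1*, the integrin beta 1 chain, rose by 0.69 and 0.66 in ADH and null oocytes and had 0.22 in *Dicer* KO oocytes (edgeR adjusted p = 0.0297). *Ptgfrn*, an immunoglobulin protein that associates with CD9, rose by 0.77 in both and had 0.11 in *Dicer* KO oocytes (edgeR adjusted p = 0.694). *Itga9*, an integrin alpha chain, fell in all 3 comparisons, by 0.24, 0.32 and 0.33. *Izumo1r*, which encodes JUNO, the receptor for sperm IZUMO1, rose by 0.26 in null oocytes (edgeR adjusted p = 0.00154) and had 0.13 in ADH oocytes (edgeR adjusted p = 0.0649). The null call was lost without fl/fl replicate 2 (edgeR adjusted p = 0.0147) or null replicate 2 (0.0112), with all 14 libraries in 1 fit (0.0124) and with the replicate block (0.0134). *Cd81*, the tetraspanin closest to CD9 in role, was at 1.52 to 2.27 CPM in fl/fl and 0.697 to 0.991 in null libraries, where it fell by 1.10 on the log2 scale (edgeR adjusted p = 0.00932). This call was lost in 4 of 5 fits without 1 library (edgeR adjusted p = 0.0124 to 0.0809), with all 14 libraries in 1 fit (0.0173) and with the replicate block (0.0417).

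**Figure D4:**
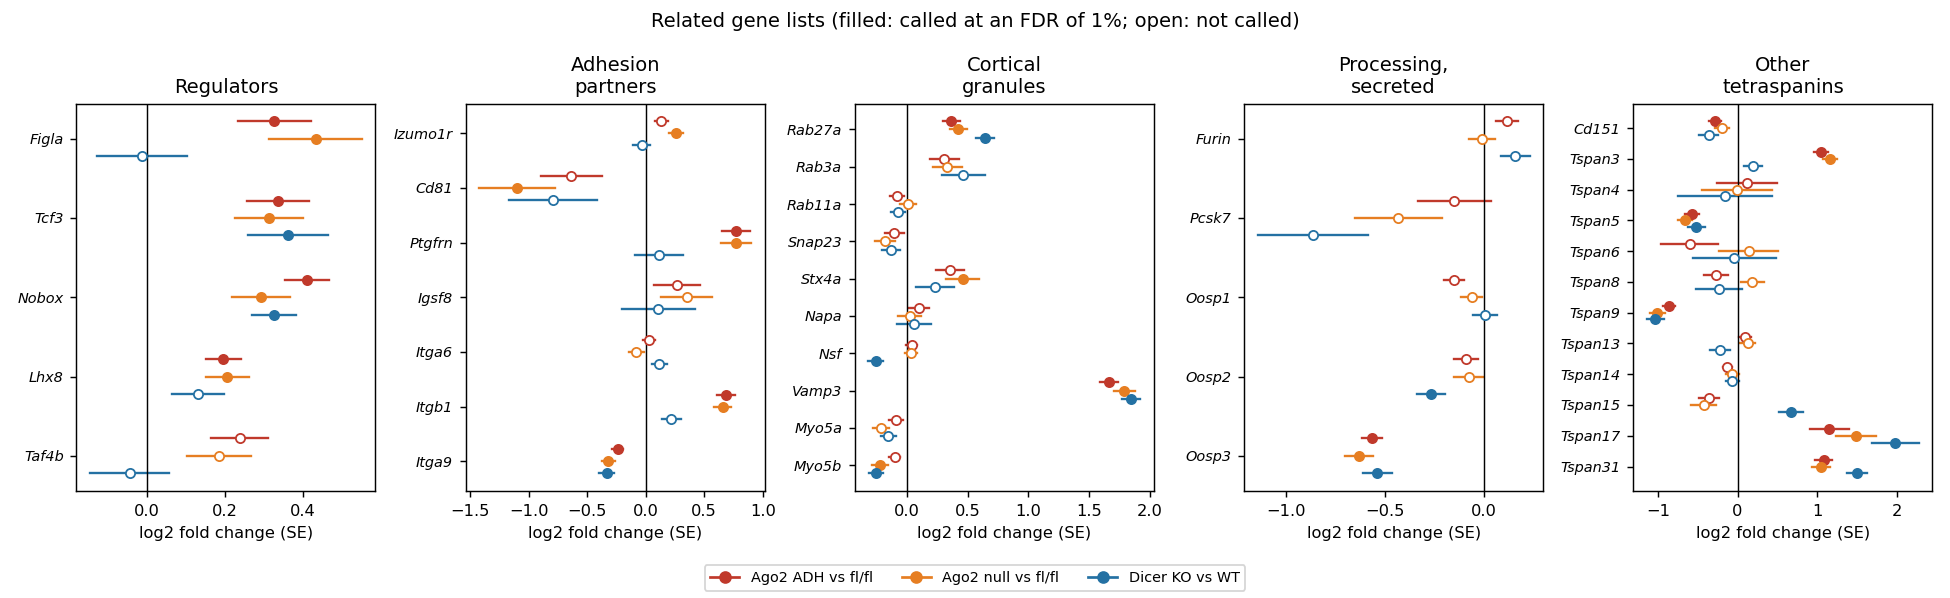
Log2 fold changes with SE (horizontal axis) of the genes of 5 related lists that were tested in all 3 comparisons with controls (colours), 39 genes in all; filled points were called at an FDR of 1%. 4 of 5 regulators shown are filled and above 0 in both *Ago2* comparisons, and *Vamp3* stands at 1.67 to 1.85 in all 3.

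In the machinery that carries ovastacin to the surface, 10 genes for cortical granule transport and exocytosis, 2 rose and 0 fell in ADH, 3 rose and 1 fell in null, and 2 rose and 2 fell in *Dicer* KO oocytes, beside the same shares of all transcripts (40.7%, 37.2% and 34.5%), with medians of 0.07, 0.03 and -0.01. *Vamp3*, a vesicle SNARE, showed the largest change on this list, from 31.5 to 40.3 CPM in fl/fl to 105 to 111 in ADH, 118 to 120 in null, and, in the *Dicer* series, from 36.2 to 42.7 in WT to 137 to 142 in KO libraries. Its log2 fold changes were 1.67, 1.79 and 1.85 (edgeR adjusted p at most 2.81e-11). *Rab27a*, a small GTPase of cortical granules, rose by 0.36, 0.42 and 0.65. Of 5 genes for proprotein processing and oocyte-secreted proteins, 1 fell in ADH, 1 in null and 2 in *Dicer* KO oocytes and 0 rose, beside 20.1%, 19.1% and 17.8% of all transcripts called lower. *Oosp3* fell in all 3, by 0.57, 0.63 and 0.54, and *Oosp2* in *Dicer* KO oocytes, by 0.27.

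Of 17 other tetraspanin genes on the list, 12 were tested in ADH, 13 in null and 12 in *Dicer* KO oocytes. Among them 3 rose and 3 fell in ADH, 3 rose and 2 fell in null, and 3 rose and 2 fell in *Dicer* KO oocytes, beside 40.7%, 37.2% and 34.5% of all transcripts called. *Tspan3* rose by 1.04 in ADH and 1.16 in null oocytes and had 0.19 in *Dicer* KO oocytes (edgeR adjusted p = 0.179). *Tspan9* fell in all 3, by 0.86, 1.00 and 1.03. *Tspan15* rose by 0.67 in *Dicer* KO oocytes and had -0.36 and -0.42 in ADH and null oocytes (edgeR adjusted p = 0.0212 and 0.0337).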

How the data were processed

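The authors amplified cDNA from oocyte lysates, sequenced paired ends on an Illumina HiSeq, aligned them to mm10 by TopHat, where a read could keep 100 alignments, and counted reads on refGene transcripts with htseq-count, unstranded. The paper and the submitters' processing notes differ in the TopHat version. The paper lists separate alignment settings for shorter and longer reads, with different limits on mismatches, and does not say which libraries had which. The deposited values are raw read counts per RefSeq transcript, not normalized, and each file ends with htseq-count's tallies of reads it assigned to no transcript. Of 26495 transcript IDs, 26077 matched RefSeq symbols and 117 GENCODE symbols of GRCm38, the assembly of mm10, and 301 had none. Unmatched IDs stayed in the tests.

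Groups and replicate numbers come from the sample labels. The paper states 3 replicates per group, and 2 *Ago2* null libraries are analysed here. Each comparison was fitted on its own libraries with edgeR 4.0.16 in R 4.3.3: filterByExpr (minimum count 10, minimum total 15), TMM, the quasi-likelihood test and Benjamini-Hochberg adjustment, with calls at an FDR of 1%. The SE is the absolute log2 fold change divided by the square root of F, and 95% intervals use the test's degrees of freedom. Genes were counted by their transcript with the highest mean count. This was 1 of 8 for *Tcf3* and 1 of 2 for *Izumo1r*, *Itga9* and *Nr5a2*, whose other transcripts are not shown. The genes, lists and the rule for naming others (list genes past the FDR in at least 1 comparison, and the 3 genes of highest Pearson's r to each member) were chosen with earlier results of these data known. DESeq2 1.42.0 and the other alternatives are given in the closing section. The procedure was also run on simulated counts, with the same spread for every transcript and far fewer changed transcripts than were called here. That setting is unlike these data, so the run does not bear on the calls. P-values measure the spread between pools of oocytes. At the depths given, 3 counts correspond to 0.0515 to 0.102 CPM, which covers counting error only, since reads carry no molecular identifiers. No pair of libraries of a group agreed within sampling noise. The replicate numbers were not shown to pair the libraries. Same-numbered libraries deviated from their group means with correlations of -0.12 to 0.04. This check is weak, since the deviations of the 2 null libraries mirror each other, and it does not exclude pairing. Promoter entries for *Zp1* and *Zp2* and protein sequences were not used here. Ratios and figures used Python 3.11.15, numpy, pandas, scipy and matplotlib.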

Additional observations from a re-analysis of the deposited data

Results flagged for a closer look

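Among the genes described, 4 had effects that differed between *Ago2* ADH and *Dicer* KO oocytes by a test of the difference itself, edgeR's interaction with Benjamini-Hochberg adjustment over 19500 transcripts. *Cd9* differed by 0.52 (log2, SE 0.109, adjusted p = 0.00367) and *Zp3* by 0.37 (SE 0.0796, adjusted p = 0.0043). 2 tetraspanin genes showed larger differences, *Tspan3* of 0.80 (SE 0.155, adjusted p = 0.0018) and *Tspan15* of -1.08 (SE 0.192, adjusted p = 0.00082). On the scale of all 14 libraries, *Tspan3* was at 19.1 to 20.4 CPM in the fl/fl and 34.7 to 42.2 in the ADH libraries, and at 30.2 to 36.5 in the *Dicer* WT and 31.3 to 44.9 in the *Dicer* KO libraries. *Tspan15* was at 7.22 to 8.2 CPM in the fl/fl and 5.62 to 6.2 in the ADH libraries, and at 6.03 to 6.96 in the *Dicer* WT and 9.14 to 11.4 in the *Dicer* KO libraries. The control groups of the 2 series did not overlap in their starting levels of *Tspan3* and *Tspan15*, nor in those of *Cd9* and *Zp3*.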

How the results depend on the processing

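Most results did not depend on the alternatives planned. The scaling added after the data were seen, given below, kept 9 of 25 member values the same and reversed the sign of 10. Of 445 member values under the alternatives planned (DESeq2, RLE, upper quartile, library totals, 2 other filters, an FDR of 5%, 1 transcript per gene, all 14 libraries, the members left out of the scaling, the replicate block and each library left out), 415 had the same sign and side of the threshold, and of 796 values of the other genes named 739 did, with 46 calls lost. A second transcript per gene could not be tried, since each member has 1. The cause of the changes below was not tested.

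Scaling to the total that includes the alignment tally, added after the data were seen, gave in ADH oocytes -0.63 (*Zp1*), -0.47 (*Zp2*), -0.42 (*Zp3*), -0.48 (*Astl*) and -0.57 (*Cd9*). In null oocytes it gave -0.66, -0.34, -0.39, -0.39 and -0.48. In *Dicer* KO oocytes it gave called decreases of -0.67, -0.56, -0.62 and -0.63 (*Zp1*, *Zp2*, *Zp3*, *Astl*). The medians of all transcripts were -0.75, -0.74 and -0.54. The interactions of *Cd9* and *Zp3* became 0.34 and 0.20. The calls rose to 13689, 13138 and 10878 transcripts, of which 8.13%, 7.96% and 11.4% were higher, 35 between ADH and null, and 1122 for the interaction. The zona share of that total, which mixes reads and alignments, was 0.264% in fl/fl, 0.191% in ADH, 0.201% in null, 0.233% in WT and 0.154% in KO oocytes. Other genes that turned lower were, in ADH oocytes, *Izumo1r* (-0.63), *Itgb1* (-0.074), *Rab27a* (-0.40), *Figla* (-0.44), *Tcf3* (-0.43), *Nobox* (-0.35) and *Lhx8* (-0.57), in null oocytes the same in that order (-0.49, -0.084, -0.32, -0.31, -0.43, -0.45, -0.54), and in *Dicer* KO oocytes *Ptgfrn* (-0.43), *Itgb1* (-0.32), *Tcf3* (-0.17), *Nobox* (-0.20), *Lhx8* (-0.40) and *Tspan3* (-0.34).

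An FDR of 5% added *Zp1* (0.13) and *Cd9* (0.19) in ADH and *Cd9* (0.27) in null oocytes, and gave 56 transcripts between ADH and null and 1638 for the interaction. Without a filter *Cd9* was called in null oocytes (0.26), and 94 transcripts between ADH and null. DESeq2 called 81 there and 1104 for the interaction. All 14 libraries in 1 fit lost *Astl* in ADH oocytes (0.23). The replicate block, for numbers not shown to pair the libraries, left 7679, 6041 and 5678 transcripts called against controls. It gave 142 between ADH and null, where *Zp1* had -0.011, and 537 for the interaction, where *Zp3* was not called (0.38).

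Leaving out 1 library gave 6401 to 7292 calls in ADH, 5686 to 6690 in null, 5266 to 5903 in *Dicer* KO, 6 to 21 between ADH and null, where the lowest was without null replicate 2 and 9 were left without ADH replicate 1 and 13 without null replicate 1, and 439 (without ADH replicate 1) to 913 for the interaction. Ranges against fl/fl were 0.17 to 0.53 for *Astl* and 0.12 to 0.40 for *Cd9* in null oocytes. In *Dicer* KO oocytes they were -0.13 to 0.060 for *Zp2* (above 0 without WT replicate 1 or KO replicate 1), -0.21 to 0.011 for *Astl* (above 0 without KO replicate 1), -0.082 to 0.0016 for *Izumo1r* (above 0 without WT replicate 2), -0.23 to 0.33 for *Ptgfrn* (below 0 without KO replicate 3) and -0.086 to 0.033 for *Figla* (above 0 without WT replicate 1, at 0.014, KO replicate 1, at 0.012, or KO replicate 2). Between ADH and null they were -0.019 to 0.076 for *Zp1*, -0.26 to 0.090 for *Astl* and -0.22 to 0.045 for *Cd9*, and for the interaction 0.18 to 0.36 for *Zp2*, 0.30 to 0.45 for *Zp3*, 0.22 to 0.44 for *Astl* and 0.46 to 0.58 for *Cd9*. With series means subtracted, the genes most like *Zp2* and *Zp3* were *Padi6* (r = 0.92) and *Tcf12* (0.94), and *Pigs* (0.87), *Padi6* (0.89) and *Ptpn4* (0.88) remained closest to *Zp1*, *Astl* and *Cd9*.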
